A study of Rattus norvegicus with 24 samples.

Results

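Cumulus-oocyte complexes from rats given a full ovulation-inducing hormone sequence were compared with complexes from control rats. A cumulus-oocyte complex is an oocyte together with the cumulus granulosa cells around it. The full sequence was gonadotropin-releasing hormone (GnRH), then equine chorionic gonadotropin (eCG), then human chorionic gonadotropin (hCG), and 6 rats received it (rats 10 to 12 and 22 to 24). The 6 control rats (rats 1 to 3 and 13 to 15) carry the treatment label control. All were sexually mature female Sprague Dawley rats, with 1 array of amplified, biotin-labelled total RNA per rat by the labels. The spread within a group is read here as spread between animals, with a reserve for full-sequence rat 24 given below. The sources used here state neither doses nor the times of injection and collection. The comparison therefore covers the 3 hormones together. The series holds 24 such arrays, with 6 further rats given GnRH alone and 6 given GnRH+eCG, which enter here only beside the main result. Of the 22226 probes on the array, 7119 (32.0%) had a detection score above 0.99 on at least 6 of the 12 arrays, and these were compared. The 367 probes detected on exactly 6 arrays had a median log2 signal of 7.17 and a median log2 difference of 0.11, and the 387 left out with detection on exactly 5 had 7.04 and -0.22.

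GnRH acts on the pituitary and is used to align the cycle, eCG makes follicles grow as follicle-stimulating hormone does, and hCG acts at the luteinizing hormone receptor and sets off ovulation. In the preovulatory follicle, luteinizing hormone makes granulosa cells release EGF-like ligands, which reach cumulus cells and turn on prostaglandin synthesis and a hyaluronan-rich matrix. The cumulus then expands, meiotic arrest of the oocyte ends, and granulosa cells begin to luteinize, which means that they stop dividing and turn to progesterone production.

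Close to 1 in 2 of the compared probes differed. At an adjusted p under 0.05, 3504 probes (49.2%) were called, 1789 of them higher (25.1%) and 1715 lower (24.1%) after the full sequence, and the median log2 difference over all 7119 probes was -0.01. The counts were alike in both directions, but large differences were more often rises. At least 2-fold differences numbered 541 rises and 557 falls, at least 4-fold 164 and 40, at least 8-fold 56 and 3, and at least 16-fold 19 and 0. All 6 values after the full sequence lay above all 6 control values for 1022 probes (14.4%), and below all of them for 857 (12.0%). With 1 probe a gene, 4910 genes were tested, of which 26.7% were called higher and 24.4% lower. Those shares are the ones against which the gene groups below are read. Of the called probes, 959 carry no gene name here, including 33 that rose by at least 4-fold, the largest with a log2 difference of 5.77.

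The arrays parted by group before any gene was singled out. Along the first principal component (64% of the variance) lay the full-sequence arrays at 29.8 to 39.6 and the control arrays at -40.8 to -26.0. Correlations across probes, which are not independent replicates, were 0.921 to 0.985 within the full-sequence group, 0.91 to 0.981 within control and 0.777 to 0.875 between them. Between 28.0% and 33.7% of probes were detected per full-sequence array and 25.3% to 37.9% per control array. Rats 1 to 12 had higher raw median signal than rats 13 to 24, and each of those sets holds 3 rats of each group. After normalization, 8 probes differed in level between the sets at an adjusted p under 0.05 by limma. In the hormone response 0 probes differed between the sets at that threshold (158 at an unadjusted p under 0.05, smallest adjusted p = 0.999). With 3 rats of each group in a set, that comparison can miss differences and does not show that the sets responded alike. Control rats were the more variable: their SD was the larger for 66.3% of probes. The array of full-sequence rat 24 lay unusually close to the middle of its group. Array weights, larger the closer an array lies to its group's fit, were 13.2 for it and 0.335 to 1.4 for the others. In Areg and Gadd45b it had 11.60 and 8.84, where the other full-sequence rats spanned 8.67 to 12.22 and 7.53 to 9.90. Whether it holds RNA of 1 animal was not tested. It enters every SD and SE of its group. Without full-sequence rat 24, 3140 probes were called, 1610 higher and 1530 lower, the fewest of all fits with 1 array left out. Control rat 2 and full-sequence rat 11 lay nearest the other group for many of the genes below. Leaving out both, which was chosen after seeing the data, gave 3347 called probes, 1667 higher and 1680 lower.

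**Figure D1:**
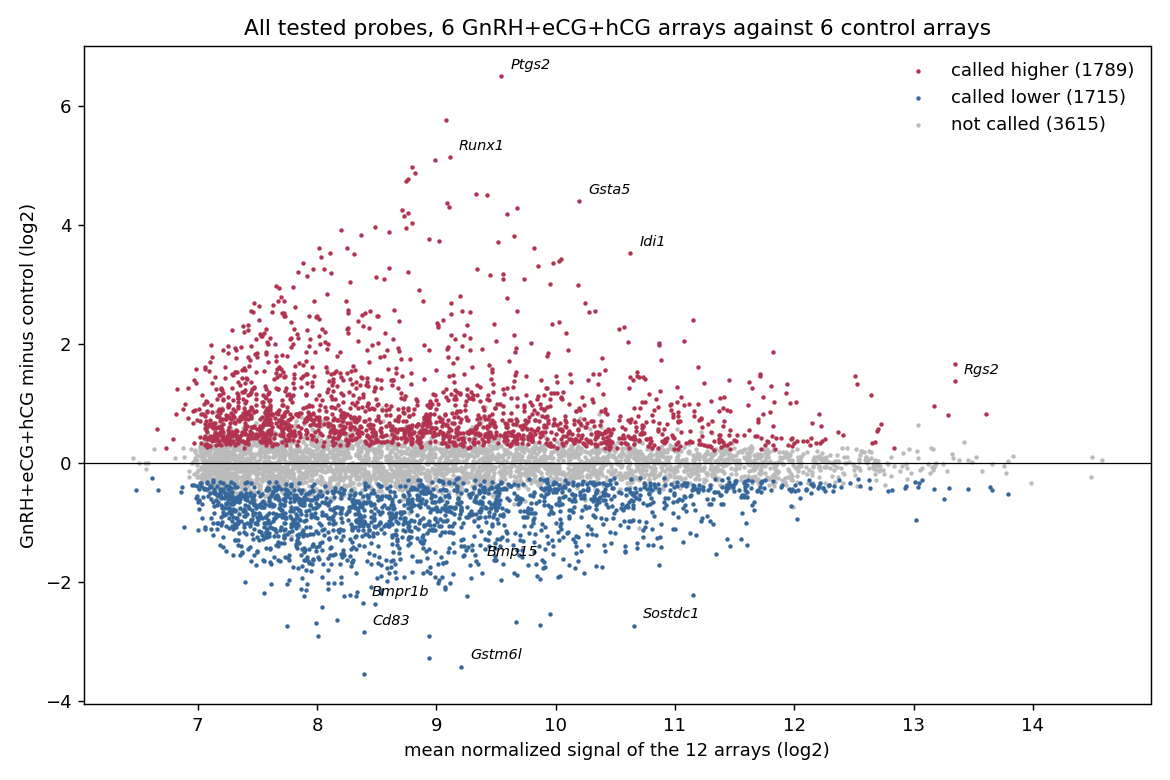
Each point is 1 of the 7119 tested probes, placed by its mean normalized signal over the 12 arrays (log2) and by the log2 difference of GnRH+eCG+hCG minus control; red probes were called higher (1789), blue ones lower (1715) and grey ones were not called. The upper edge reaches 6.51 at Ptgs2, while named falls reach -3.42 at Gstm6l.

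Prostaglandin synthesis held the largest rise of any gene. Ptgs2 encodes cyclooxygenase 2, which makes the prostaglandin precursor in the ovulating follicle. Its lowest, median and highest log2 normalized signals were 11.51, 12.97 and 13.25 after the full sequence, against 6.17, 6.28 and 6.44 in control. It was detected on 6 full-sequence arrays and on 0 control arrays, so its difference is given as a bound against a floor: the signal was at least 81.1-fold higher (adjusted p = 3.27e-10). Such a bound sets the mean of the brighter group against a floor in the other, which on each array is the dimmest detected signal or the probe's own value, whichever is brighter. The words at least mark such bounds throughout, and they are not strict limits. An undetected probe can be brighter than the dimmest detected one, as Cd14 was at 7.00 in control rat 2. Where a probe's own values set the floor, as for Cd14, the bound equals the fitted fold and carries its error. Fitted log2 differences of such genes, which enter list medians and plots, are not bounds. Pla2g4a, the phospholipase that releases arachidonic acid for cyclooxygenases, had signals of 11.12, 11.62 and 11.99 after the full sequence, against 6.75, 6.91 and 7.54 in control. The groups stood wholly apart, with a log2 difference of 4.53 ± 0.17 (SE, adjusted p = 3.27e-10), or 23.1-fold, and the gene was detected on 3 control arrays.

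Of 9 tested prostaglandin genes, 5 rose and 2 fell, with a median log2 difference of 1.55. Both an enzyme that makes the precursor and enzymes that remove prostaglandins were among the rises. Hpgd, which inactivates prostaglandins, differed by 1.91 ± 0.47 (SE, adjusted p = 0.00399), although the highest control value of 9.71 overlapped the full-sequence range. Cbr1, a carbonyl reductase that acts on prostaglandin E2, rose by 3.10 ± 0.27 (SE, adjusted p = 8.67e-07), with no overlap. The receptor gene Ptgfr rose by 1.55 ± 0.24. Ptges, an inducible prostaglandin E synthase, moved the other way: its signals were 6.30, 6.35 and 6.64 after the full sequence, against 7.73, 8.39 and 9.13 in control. It was detected on 0 full-sequence arrays and all 6 control arrays, and was at least 3.61-fold lower (adjusted p = 1.47e-06). Ptgis, prostacyclin synthase, fell by 1.20 on the log2 scale (adjusted p = 0.00161), while Ptgr1 and Ptges2 were not called. The receptor genes Ptger2, Ptger3 and Ptger4 were detected on 0 of 12 arrays.

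**Figure D2:**
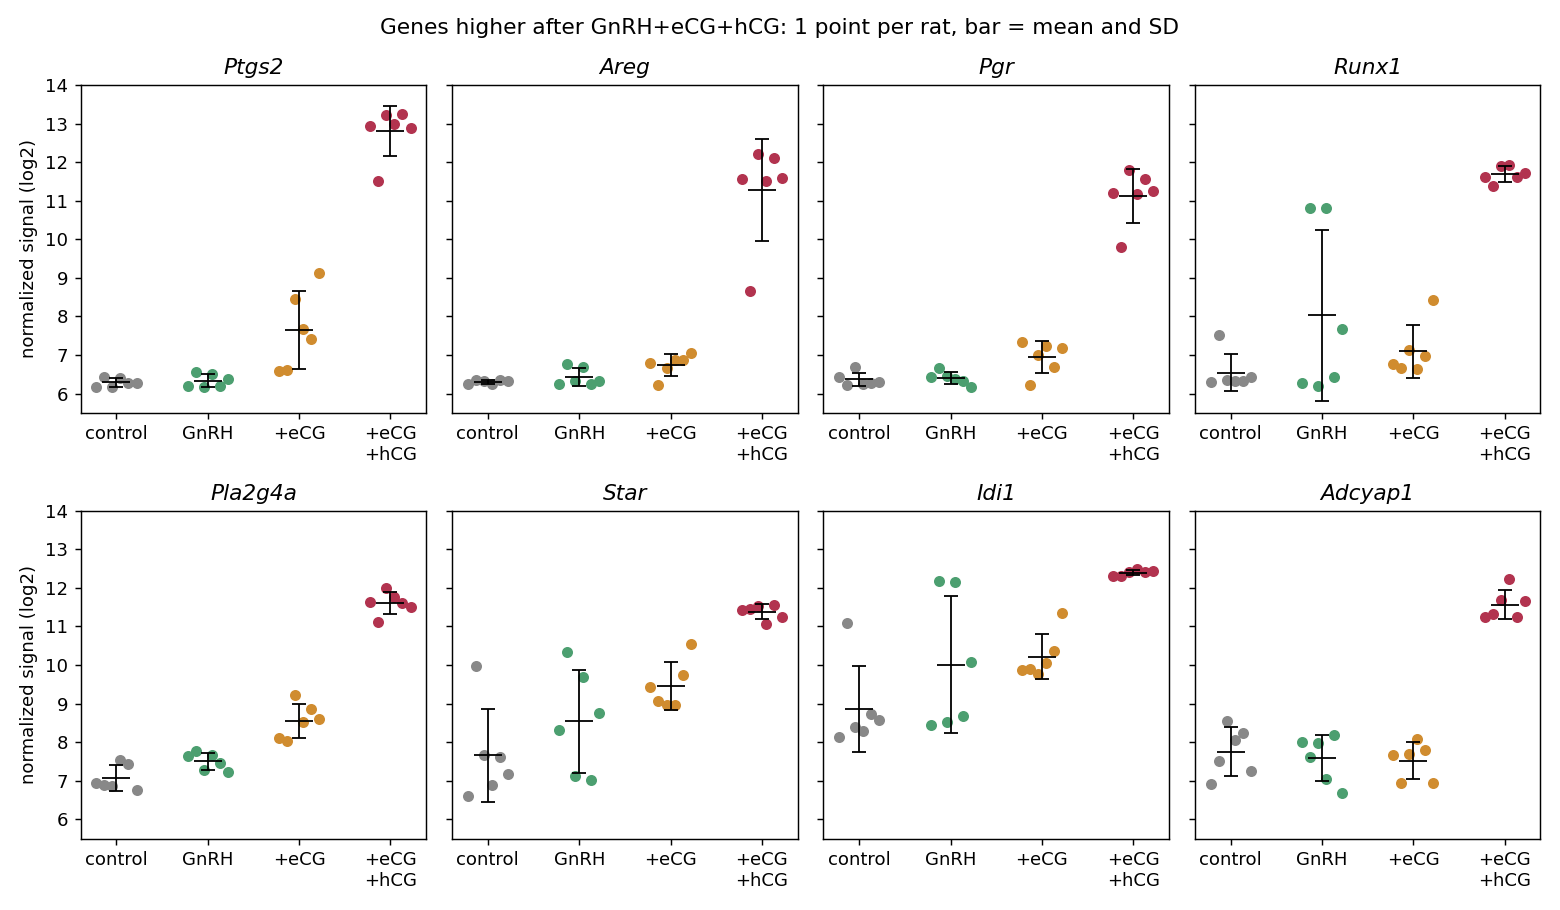
Log2 normalized signal of 8 genes in each rat (points), with group mean and SD (bars), with control at the left, then GnRH, then GnRH+eCG, then the full sequence. The 6 full-sequence rats lie above all 6 control rats in every panel; Ptgs2 spans 11.51 to 13.25 in them and 6.17 to 6.44 in control.

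The stretches before the annotated starts of 6 strongly raised genes were searched for elements through which cAMP and AP-1 factors are known to act. They are the 250 bases upstream of the gene start in RefSeq (rat assembly GRCr8). Runx1, Pla2g4a, Gask1b and Gsta5 are the first rises with an entry, and Ptgs2 and Areg were added after their values were seen. Matches to TGACGTCA (the full cAMP-response element), TGANTCA (AP-1), TGACG (a shortened cAMP-response element, part of the full one) and CACGTG (an E-box, searched after the sequences had been seen) were sought on both strands and are in capitals.
Ptgs2, chr13:64713813-64714062, plus strand: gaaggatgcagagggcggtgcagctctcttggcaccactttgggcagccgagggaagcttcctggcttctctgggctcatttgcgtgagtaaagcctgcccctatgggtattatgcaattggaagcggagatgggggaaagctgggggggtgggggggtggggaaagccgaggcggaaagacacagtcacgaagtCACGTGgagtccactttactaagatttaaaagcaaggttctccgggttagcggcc
Areg, chr14:17265642-17265891, minus strand: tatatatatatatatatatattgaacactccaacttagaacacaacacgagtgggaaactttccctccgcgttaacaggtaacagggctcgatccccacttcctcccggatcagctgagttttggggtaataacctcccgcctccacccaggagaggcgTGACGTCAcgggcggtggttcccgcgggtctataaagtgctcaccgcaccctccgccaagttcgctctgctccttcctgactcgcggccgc
Runx1, chr11:45421326-45421575, minus strand: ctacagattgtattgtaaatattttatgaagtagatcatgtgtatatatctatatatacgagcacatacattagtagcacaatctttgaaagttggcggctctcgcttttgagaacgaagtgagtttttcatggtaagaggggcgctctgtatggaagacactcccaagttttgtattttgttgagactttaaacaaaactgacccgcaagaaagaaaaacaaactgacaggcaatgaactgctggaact
Pla2g4a, chr13:64572353-64572602, minus strand: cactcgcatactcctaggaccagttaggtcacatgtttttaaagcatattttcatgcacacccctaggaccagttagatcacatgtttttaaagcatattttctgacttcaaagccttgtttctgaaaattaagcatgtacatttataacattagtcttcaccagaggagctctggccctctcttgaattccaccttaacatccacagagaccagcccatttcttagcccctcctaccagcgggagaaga
Gask1b, chr2:167345592-167345841, plus strand: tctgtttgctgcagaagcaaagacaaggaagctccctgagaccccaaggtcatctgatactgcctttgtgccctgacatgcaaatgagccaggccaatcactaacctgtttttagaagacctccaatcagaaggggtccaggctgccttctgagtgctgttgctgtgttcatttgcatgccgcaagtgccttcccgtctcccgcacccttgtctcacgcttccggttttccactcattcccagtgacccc
Gsta5, chr8:87988104-87988353, plus strand: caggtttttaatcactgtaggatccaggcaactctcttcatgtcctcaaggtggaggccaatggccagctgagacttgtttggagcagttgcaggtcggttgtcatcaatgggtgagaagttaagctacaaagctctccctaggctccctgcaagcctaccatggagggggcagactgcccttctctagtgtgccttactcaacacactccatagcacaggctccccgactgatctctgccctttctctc
The window of Areg holds a TGACGTCA that begins 91 bases before the start, with a TGACG inside it on each strand, and that of Ptgs2 a CACGTG that begins 55 bases before it. None of the 4 motifs matched in the windows of Runx1, Pla2g4a, Gask1b and Gsta5. Over 27457 promoters of the same length, TGACGTCA occurred in 1.7%, TGANTCA in 6.36%, TGACG in 19.0% and CACGTG in 5.79%. Among promoters of genes called higher those shares were 4.11%, 4.91%, 33.8% and 10.2%, and among genes called lower 3.7%, 4.0%, 29.8% and 9.0%. The 27457 promoters include those of genes not compared here, so they are an unlike background for called genes of either direction. The shares among compared genes that were not called were not counted. A match shows that the letters are there, and these shares were not tested.

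EGF-like ligands rose together with their receptor. Areg, amphiregulin, had signals of 8.67, 11.58 and 12.22 after the full sequence, against 6.24, 6.32 and 6.36 in control, and Ereg, epiregulin, of 9.62, 11.94 and 12.12 after the full sequence, against 6.32, 6.38 and 6.72 in control. Neither was detected on any control array, and the bounds were at least 28.3-fold higher for Areg and at least 32.9-fold higher for Ereg (adjusted p = 1.64e-06 and 9.66e-08). For both ligands, full-sequence rat 11 lay well below the other 5 rats of its group, yet above all controls. Egfr, the receptor for both, rose by 1.62 ± 0.13 (SE, adjusted p = 3.36e-07), and Tgfa, another ligand, by 1.19 ± 0.16. Adam17, the protease that frees these ligands from the membrane, was the exception of this list of 5: its signals were 9.15, 9.30 and 9.44 after the full sequence, against 10.00, 10.08 and 10.27 in control. The ranges did not meet, and Adam17 fell by 0.80 on the log2 scale. The median over the 5 was 1.62. Areg and Ereg passed the filter only through the full-sequence group, so this median describes the filter as well as the genes. The further ligand genes Btc, Hbegf and Egf were detected on 0 of 12 arrays.

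Genes that damp the MAP kinase pathway downstream of EGF receptors changed as well, with 5 of 8 tested higher, 1 lower and a median of 1.20. Dusp6, a phosphatase specific for ERK, rose by 1.33 ± 0.17 (SE, adjusted p = 3.65e-05). Dusp5, which acts on ERK in the nucleus, was detected on 0 control arrays and was at least 4.24-fold higher. Spry2 and Spred1, inhibitors upstream of ERK, rose by 1.93 ± 0.22 and 1.07 ± 0.13 with no overlap between groups. Dusp7 fell by 1.20 on the log2 scale, with ranges that overlapped. The call of Dusp1, a stress-induced phosphatase, rested on the set of arrays: its signals were 10.83, 11.18 and 11.53 after the full sequence, against 7.55, 9.50 and 12.68 in control. It passed at an adjusted p of 0.0472, and leaving out any 1 of 11 arrays ended the call, as did the rat-number set as a block (adjusted p = 0.0503) and a fit on all 24 arrays (adjusted p = 0.0769), whereas without control rat 2 the log2 difference was 2.17 (adjusted p = 0.000258), against 1.56 with all arrays.

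Transcription regulators of ovulation were led by Runx1 and Pgr. Runx1, a DNA-binding factor best known from blood cell development, had signals of 11.37, 11.67 and 11.92 after the full sequence, against 6.31, 6.34 and 7.51 in control. The groups were wholly apart, with a fitted log2 difference of 5.15 ± 0.20 (SE, adjusted p = 3.27e-10). It was detected on 1 control array, that of control rat 2, so the other 5 control values were not well above background and the difference has no exact size. Pgr encodes the progesterone receptor, which follicle rupture needs in mice. Its signals were 9.79, 11.22 and 11.79 after the full sequence, against 6.23, 6.28 and 6.70 in control, it was detected on 0 control arrays, and it was at least 24.7-fold higher. Cebpb, a factor that granulosa cells need to luteinize in mice, rose by 2.48 ± 0.14 (SE, adjusted p = 1.43e-08). Of the 14 tested regulators, 8 rose, 1 fell and the median was 0.96. The single fall was Nrip1, a nuclear receptor corepressor needed for ovulation in mice, at -1.02. Of the immediate early genes in the list, Junb and Egr1 rose, by 2.00 and 0.82 on the log2 scale (adjusted p = 0.000798 and 0.0361), while Egr2, Klf4, Fos and Jun had differences of 1.13, 0.93, 0.59 and 0.24 and were not called.

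Genes of the expanding cumulus matrix rose in 5 of 6 cases, with none called lower and a median of 1.29 (1.19 with Cd44 at its bound). Adamts1, a protease that cleaves versican, had signals of 11.04, 11.81 and 12.21 after the full sequence, against 6.97, 8.21 and 10.62 in control, and rose 10.5-fold (log2 difference 3.40 ± 0.49 (SE, adjusted p = 7.34e-05)). Vcan, versican itself, rose by 1.03 ± 0.12, with values of 12.19 and above after the full sequence and of 11.60 and below in control. Cd44, the hyaluronan receptor, was detected on 0 control arrays and was at least 1.99-fold higher. Adamts9 and the proteoglycan gene Sdc4 rose by 1.78 ± 0.26 and 1.35 ± 0.21. Hmmr, another hyaluronan-binding protein, was not called (-0.15 ± 0.25). The synthase genes Has1 and Has2 missed the filter on detection, since each was detected on 5 full-sequence arrays and 0 control arrays. Has1 averaged 8.64 ± 1.55 and Has2 7.78 ± 0.63 after the full sequence (SD, n = 6 each), and neither was well above background on any control array.

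The supply of hyaluronan precursors rose at particular steps. Hyaluronan is built from UDP-glucuronic acid and UDP-N-acetylglucosamine. Ugdh, which makes UDP-glucuronic acid, had signals of 10.01, 10.20 and 10.49 after the full sequence, against 8.06, 8.32 and 8.62 in control, and rose by 1.90 ± 0.13 (SE, adjusted p = 7.78e-08). Gfpt2, which starts the hexosamine route, was detected on 0 control arrays and was at least 4.69-fold higher, while Gfpt1, its paralog, differed by 0.01 ± 0.09 and was not called. Uap1, which makes UDP-N-acetylglucosamine, rose by 2.33 ± 0.37 (SE, adjusted p = 0.000152). Of the 8 tested genes of this supply, 3 rose and 2 fell (Ugp2 and Ogt, each at -0.43 on the log2 scale), so the median was 0.09. The Ogt call was lost on leaving out any of 7 arrays, with adjusted p-values of 0.053 to 0.0863.

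Other leading rises belong to several pathways, and control rat 2 stood apart in many of them. A2m, a protease inhibitor of plasma, had signals of 10.78, 11.29 and 11.88 after the full sequence, against 6.22, 6.27 and 9.47 in control. Gask1b, a Golgi-associated kinase-like gene, had 11.25, 11.69 and 11.93 after the full sequence, against 6.56, 6.93 and 8.59 in control. The groups did not overlap for either gene, and the log2 differences were 4.38 ± 0.48 and 4.50 ± 0.28. Nt5e, which turns AMP into adenosine at the cell surface, rose by 4.19 ± 0.16 (SE, adjusted p = 3.27e-10). Tnfrsf12a, the receptor for the cytokine TWEAK, rose by 4.26 ± 0.28, Pvr, an adhesion molecule, by 4.21 ± 0.22, and Vnn3, of the pantetheinase family, by 4.16 ± 0.16. In 3 lipid or stress genes the control group held 1 high value. G0s2, an inhibitor of fat breakdown, had signals of 11.33, 11.85 and 12.22 after the full sequence, against 6.45, 7.01 and 10.80 in control. Osgin1, an oxidative stress response gene, had 11.08, 11.16 and 11.68 after the full sequence, against 6.23, 6.35 and 9.98 in control, and Scd, a fatty acid desaturase, 10.26, 10.81 and 11.30 after the full sequence, against 6.25, 6.36 and 8.96 in control. The highest control value was that of control rat 2 in each case. Gask1b, Osgin1, Tnfrsf12a, Pvr, Vnn3 and Scd were detected on 1 control array each and A2m on 2, so their differences are set against controls that were mostly not well above background. The same holds, with 1 control array each, for Egfr, Tgfa, Cebpb, Adamts9, Sdc4, Cdk6, Cd74, Col3a1, Col4a1 and Yars1, and with 2 for Btg3, Col1a2 and Itga2. Without control rat 2 the log2 difference was 4.94 for G0s2 and 4.90 for Osgin1, against 4.29 and 4.30 with it.

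**Figure D3:**
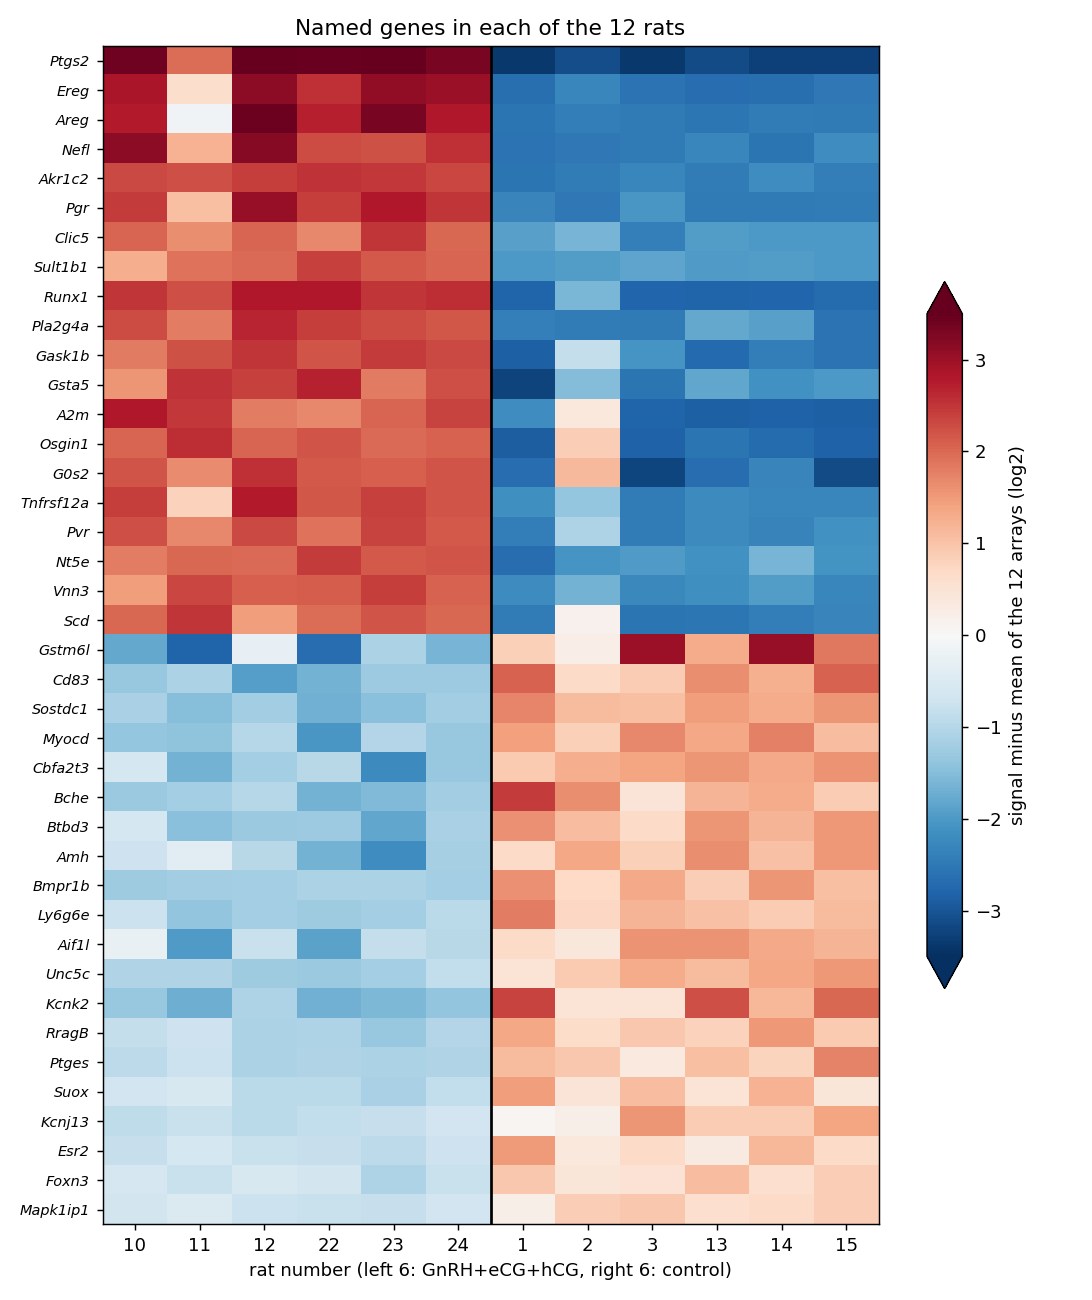
Rows are 40 named genes and columns the 12 rats, full sequence on the left and control on the right; colour is the log2 signal minus the gene's mean over the 12 arrays, and the scale is capped at both ends. Full-sequence rat 11 is paler for Ptgs2, Ereg, Areg, Nefl and Pgr, and control rat 2 is closer to the full-sequence rats for A2m, Osgin1, G0s2 and Scd.

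Genes seen only after the full sequence were more numerous than those seen only in control. Detection on all 6 arrays of 1 group and on none of the other held for 103 probes on the side of the full sequence and 36 on the side of control, and the called genes among them numbered 73 and 16. Such probes passed the filter only through the group in which they were bright, so these counts describe the filter as well as the groups. Beyond the genes already given, Nefl, a neurofilament protein, was at least 27.1-fold higher, with signals of 10.05, 11.25 and 12.00 after the full sequence, against 6.23, 6.33 and 6.64 in control. Akr1c2, an aldo-keto reductase, was at least 25.5-fold higher, with signals of 11.03, 11.14 and 11.28 after the full sequence, against 6.21, 6.34 and 6.60 in control. Clic5, an intracellular chloride channel protein, and Sult1b1, a sulfotransferase, were at least 14.8-fold and at least 13-fold higher.

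Genes of meiotic arrest and cyclic nucleotides changed about as often as all genes did, with 4 of 13 tested higher, 3 lower and a median of 0.09. Cyclic AMP and cyclic GMP hold the oocyte in meiotic arrest, and phosphodiesterases break them down. Pde10a, which acts on both, was detected on 0 control arrays and was at least 10.7-fold higher, with signals of 9.36, 9.94 and 10.39 after the full sequence, against 6.19, 6.36 and 6.40 in control. Pde4d, specific for cyclic AMP, was at least 3.44-fold higher. Pde3a, the phosphodiesterase of the rodent oocyte, fell by 1.98 on the log2 scale (adjusted p = 0.000222), with signals of 7.04, 7.66 and 8.20 after the full sequence, against 8.21, 9.84 and 10.33 in control. The gap junction gene Gja4, used between oocyte and cumulus cells, and Nppc, the natriuretic peptide that sustains arrest, had log2 differences of -1.92 and -1.11, both called, while Npr2, its receptor, was not called (0.09). All 3 falls lay within the -2.17 to -1.01 spanned by the oocyte genes below, and whether they differ from that general fall was not tested. Prkar1a, a regulatory subunit of the cyclic AMP-dependent kinase, rose by 1.03 ± 0.14 (SE, adjusted p = 4.53e-05).

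Steroid and cholesterol genes rose more often than they fell. Star, which carries cholesterol into mitochondria for steroid synthesis, had signals of 11.05, 11.44 and 11.55 after the full sequence, against 6.61, 7.39 and 9.98 in control, and rose 13.2-fold (log2 difference 3.72 ± 0.43 (SE, adjusted p = 1.14e-05)). Scarb1, the receptor that takes up HDL cholesterol, rose by 3.01 ± 0.35 (SE, adjusted p = 1.06e-05). Hsd11b1, which regenerates active glucocorticoid, had signals of 11.34, 11.60 and 11.88 after the full sequence, against 6.96, 7.89 and 9.70 in control, and rose by 3.61 ± 0.37. In the steroid list, 8 of 19 tested genes rose, 4 fell and the median was 0.35. The falls included Fshr, the follicle-stimulating hormone receptor, at -1.05 ± 0.27, Hsd17b1, which makes estradiol, at -1.06 ± 0.26, and Esr2, estrogen receptor beta, which was detected on 0 full-sequence arrays and was at least 2.88-fold lower. Cyp19a1, aromatase, differed by -1.09 ± 0.44 and was not called (adjusted p = 0.0536). Cyp11a1, which makes pregnenolone, and Lhcgr, the luteinizing hormone receptor, had differences of 0.64 and -0.01 and were not called.

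Cholesterol biosynthesis had 14 of 17 tested genes higher, 1 lower and a median of 0.93. Idi1, an isomerase of the mevalonate route, had signals of 12.31, 12.41 and 12.48 after the full sequence, against 8.13, 8.48 and 11.09 in control, and rose 11.5-fold (log2 difference 3.53 ± 0.39 (SE, adjusted p = 8.51e-06)). Cyp51 and Msmo1, which demethylate sterols, differed by 2.81 ± 0.30 and 2.78, Nsdhl by 1.92 ± 0.22 and Sc5d by 1.37 ± 0.12. The full-sequence values of Idi1 spanned 12.31 to 12.48, a far narrower range than in control, where control rat 2 again was the highest. The fall was Insig2, which holds back the sterol-sensing factor SREBP, at -1.17. The genes of that factor, Srebf1 and Srebf2, were detected on 0 of 12 arrays.

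Detoxifying enzymes changed in opposite directions within families. These families hold near-identical copies that a bead probe may not tell apart, so a value belongs to the probe and only with that reserve to the gene. Gsta5, a glutathione transferase of the alpha class, had signals of 11.75, 12.52 and 12.88 after the full sequence, against 6.97, 8.15 and 8.67 in control, and rose 21.2-fold. Gsta2 of the same class rose by 2.02 ± 0.27. Transferases of the mu class ran the other way: Gstm6l had the largest fall among named genes, with signals of 6.42, 7.50 and 8.93 after the full sequence, against 9.46, 10.78 and 12.27 in control. Its groups did not overlap, although both were widely spread, and the log2 difference was -3.42 ± 0.52 (SE, adjusted p = 0.00011). Gstm1, Gstm2, Gstm5 and Gstm7 had differences of -0.82, -0.78, -0.89 and -1.18, all called. Gclm and Gss, which build glutathione, also changed: Gclm rose by 1.03 ± 0.15, and Gss, detected on 0 control arrays, was at least 1.82-fold higher. Over 23 tested glutathione genes, 8 rose, 5 fell and the median was 0.13. Among 11 aldo-keto reductases 5 rose, 1 fell and the median was 0.17: Akr1b8 and Akr1c3 rose by 3.37 ± 0.25 and 3.18 ± 0.41, Akr1c19, detected on 1 full-sequence array, had -1.20, and the call of Akr1c14 (0.38 ± 0.14) was lost on leaving out any of 9 arrays (adjusted p = 0.0548 to 0.0731).

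Adcyap1, Nefl, Snap25 and Ptprn, better known from neurons and endocrine cells, were among the larger rises. Adcyap1, the peptide PACAP, which luteinizing hormone induces in rat granulosa cells, had signals of 11.24, 11.49 and 12.22 after the full sequence, against 6.91, 7.79 and 8.56 in control, and rose 14.0-fold (log2 difference 3.81 ± 0.27 (SE, adjusted p = 1.16e-07)). Its receptor gene Adcyap1r1 fell by 1.79 on the log2 scale, with overlapping ranges and detection on 1 full-sequence array. Snap25, a vesicle fusion protein, was detected on 0 control arrays, was at least 10.1-fold higher, and spread widely after the full sequence, between 7.49 and 11.44. Ptprn, a protein of secretory granules, was at least 6.48-fold higher. Of 29 such genes on the array 7 could be tested, of which 4 rose and 2 fell, with a median of 2.98 (2.70 with genes at their bounds), and 14 were detected on 0 of the 12 arrays. The falls were Adcyap1r1 and Uchl1, and the remaining rise was Nefl, given above. Nefl, Snap25 and Ptprn passed the filter only through the full-sequence group, so the list median describes the filter as well as the genes. Of members that missed it, Nefm, Scg2 and Tubb3 were detected on 4, 4 and 3 full-sequence arrays and 0 control arrays. Scg3, Syt11 and Tac1 were detected on 4, 3 and 3 control arrays and 0 full-sequence arrays.

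Inflammatory and vascular genes rose in most tested cases. Cxcl10, a chemokine, was detected on 0 control arrays and was at least 6.49-fold higher, with signals of 8.38, 9.15 and 9.83 after the full sequence, against 6.13, 6.19 and 6.38 in control. Osmr and Tnfrsf1a, receptors for oncostatin M and TNF, were at least 3.28-fold and at least 2.41-fold higher, also with detection on 0 control arrays. Of 39 genes of inflammation on the array 13 could be tested. Of these, 8 rose, 3 fell (Irf1, Pparg and Socs2, at -1.51, -1.05 and -0.97) and the median was 1.07. Cxcl10, Osmr and Tnfrsf1a passed the filter only through the full-sequence group, so these counts and the median describe the filter as well as the genes. The cytokine genes Il1a, Il1b, Il6 and Tnf were detected on 0 of 12 arrays. Of 18 vascular and luteal genes on the array 6 could be tested, and all 6 rose, with a median of 1.05. Snap25, given above, is also a member and passed the filter only through the full-sequence group. Rgs2, a brake on G protein signals, rose by 1.38 ± 0.22 (SE, adjusted p = 0.00019), and Vegfc, a growth factor of lymphatic vessels, by 1.42 ± 0.24. The calls of Vegfa (0.72 ± 0.25, adjusted p = 0.0273) and of the Wnt receptor gene Fzd1 (0.64 ± 0.21) were lost without full-sequence rat 12 (adjusted p = 0.0563 and 0.0518), and that of Vegfa also without full-sequence rat 10 or control rat 14, that of Fzd1 also without control rat 13.

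Ligands, antagonists and receptors of the TGF-beta family were among the larger falls. Sostdc1, a secreted antagonist of BMP and Wnt, had signals of 8.99, 9.31 and 9.52 after the full sequence, against 11.72, 12.04 and 12.37 in control. The groups lay far apart with a tight spread in each, and the log2 difference was -2.73 ± 0.14 (SE, adjusted p = 4.45e-09), or 6.63-fold lower. Bmpr1b, a receptor through which oocyte factors act on cumulus cells, had signals of 7.13, 7.21 and 7.28 after the full sequence, against 9.09, 9.57 and 9.98 in control, and Inhbb, the subunit of inhibin B and activin B, 6.90, 7.15 and 7.39 after the full sequence, against 9.21, 9.28 and 9.65 in control. Both ranges were narrow after the full sequence, and lay close to the median of 7.17 for probes detected on exactly 6 of 12 arrays. Signal that near background can narrow a spread, so these ranges do not show how alike the rats were. The log2 differences were -2.35 and -2.21. Amh, anti-Müllerian hormone, which restrains follicle growth, fell by 2.36 (adjusted p = 1.14e-05), and its receptor gene Amhr2 had a difference of -1.74. The accessory receptor gene Tgfbr3 had a difference of -2.01, and the ligand gene Bmp2, detected on 0 full-sequence arrays, was at least 2.46-fold lower. Of 23 tested genes, 11 fell, 3 rose (Tgfbr1, Smad1 and Smad5, at 0.77, 0.41 and 0.30) and the median was -0.26. Inha, the inhibin alpha subunit, differed by 0.01 ± 0.13.

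**Figure D4:**
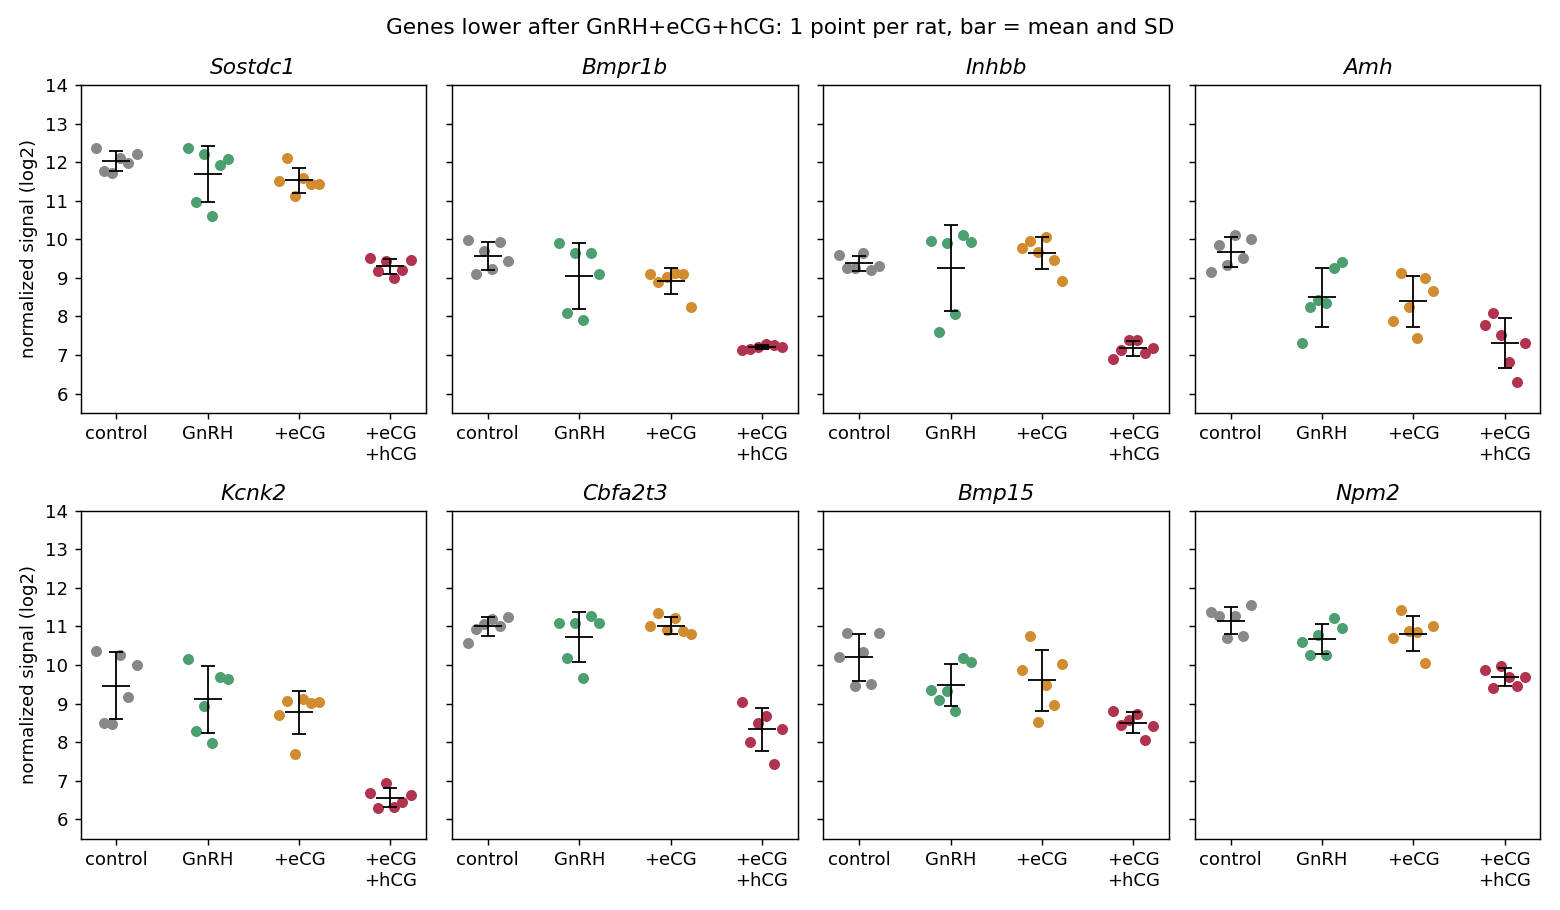
Log2 normalized signal of 8 genes in each rat (points), with group mean and SD (bars), with control at the left, then GnRH, then GnRH+eCG, then the full sequence. In each panel the 6 full-sequence rats lie below all 6 control rats; Sostdc1 spans 8.99 to 9.52 in them and 11.72 to 12.37 in control.

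Further falls covered surface proteins, transcription factors and channels. Cd83, a surface protein known from dendritic cells, had signals of 6.47, 7.09 and 7.27 after the full sequence, against 9.05, 9.81 and 10.46 in control, with detection on 2 full-sequence arrays. Cbfa2t3, a corepressor of blood cell development, had 7.43, 8.41 and 9.04 after the full sequence, against 10.58, 11.03 and 11.25 in control. Neither gene showed overlap, and the log2 differences were -2.84 ± 0.24 (SE, adjusted p = 7.72e-07) and -2.67 ± 0.22 (SE, adjusted p = 6.18e-07). Myocd, a coactivator of smooth muscle genes, had a log2 difference of -2.72, Btbd3 of -2.54, Aif1l, an actin-binding protein, of -2.24, and Unc5c, a netrin receptor, of -2.23. Kcnk2, a potassium channel, had the largest bound among genes seen only in control: its signals were 6.30, 6.54 and 6.94 after the full sequence, against 8.48, 9.59 and 10.37 in control. It was at least 7.1-fold lower (adjusted p = 8.07e-06). Kcnj13, another potassium channel, was at least 3.16-fold lower, RragB, a GTPase that links amino acids to mTOR, at least 3.97-fold, and Suox, sulfite oxidase, at least 3.17-fold lower. Bche, butyrylcholinesterase, fell by 2.63, and was detected on 1 full-sequence array and all 6 control arrays. Of 16 tested ion channel genes, 5 fell, 4 rose and the median was -0.16.

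All 13 tested oocyte genes were lower after the full sequence, with differences of -2.17 to -1.01 and a median of -1.69. Npm2, a histone chaperone of the egg, had signals of 9.40, 9.69 and 9.98 after the full sequence, against 10.69, 11.28 and 11.55 in control. Bmp15, a growth factor the oocyte sends to cumulus cells, had 8.05, 8.50 and 8.81 after the full sequence, against 9.45, 10.28 and 10.83 in control, and H1f8, the oocyte linker histone, 8.55, 8.91 and 9.22 after the full sequence, against 10.10, 10.93 and 11.45 in control. No range overlapped in these 3 genes, and the log2 differences were -1.47 ± 0.16, -1.69 ± 0.24 and -1.95 ± 0.22. Gdf9, Zp3 and Padi6, also oocyte products, had -1.85, -1.73 and -2.14. Summed over the 13 genes, normalized signal was 3498 to 5575 per full-sequence array and 8160 to 22219 per control array. Each array holds RNA of the oocyte and the cumulus together, so fewer cells of a type and less RNA per cell cannot be told apart, here or in any other group of genes. Rats 1 to 12 alone gave a list median of -1.56, and rats 13 to 24 one of -1.81.

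Markers of cumulus and granulosa cells did not shift as one: 4 of 8 tested fell, none rose and the median was -1.06. Gja1, connexin 43, the main cumulus gap junction protein, had signals of 13.97, 14.37 and 14.81 after the full sequence, against 14.39, 14.62 and 14.81 in control, and was not called (-0.23 ± 0.16). These signals are among the brightest, where quantile normalization gives every array the same few values, so Gja1 could hardly show a change. The defining marker Inha was not called either, whereas Amh, Esr2, Hsd17b1 and Fshr fell. Summed signal over the 8 genes was 27230 to 40745 per full-sequence array and 32609 to 47218 per control array.

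Genes of cell division fell more often than they rose, and several inhibitors of division rose. Ccne2, cyclin E2, had signals of 7.25, 7.58 and 7.93 after the full sequence, against 8.41, 9.13 and 9.36 in control, and Tyms, thymidylate synthase, 8.37, 8.51 and 8.97 after the full sequence, against 9.62, 9.87 and 10.12 in control. Their ranges were apart, with log2 differences of -1.45 and -1.28. Of 25 tested proliferation genes, 10 fell, 1 rose and the median was -0.19. Mcm6 and Bub1b had -1.13 and -1.04, while Pcna, Cdk1 and Cdk4 had 0.02, 0.23 and 0.05 and were not called. The rise was Cdk6, at 1.70 ± 0.17. Cdkn1a, the cell cycle inhibitor p21, had signals of 9.25, 10.16 and 10.55 after the full sequence, against 6.18, 6.36 and 7.39 in control, with detection on 1 control array, and rose by a fitted 3.51 ± 0.23 (SE, adjusted p = 7.7e-08). Btg3 and Btg1, antiproliferative proteins, rose by 2.17 ± 0.11 and 1.49 ± 0.15. Cdkn1b, the inhibitor p27, fell by 0.93. In all, 5 of 11 inhibitors rose, 2 fell and the median was 0.44.

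Matrix and protease-inhibitor genes included Timp1, an inhibitor of matrix metalloproteinases, with signals of 11.21, 11.70 and 11.80 after the full sequence, against 8.32, 8.81 and 10.76 in control. It rose by 2.56 ± 0.33 (SE, adjusted p = 3.15e-05), and Timp3 by 1.13 ± 0.13. Of 10 tested inhibitors and proteases 3 rose, 2 fell and the median was 0.29, and the Cst3 fall (-0.38 ± 0.13) lost its call without any of 6 arrays (adjusted p = 0.0535 to 0.0714). Integrins and collagens rose in 10 of 16 tested cases, with 1 fall and a median of 1.22. Itga2, the integrin subunit that binds collagen, had signals of 9.07, 9.41 and 10.04 after the full sequence, against 6.30, 6.69 and 6.98 in control, a rise of 2.85 ± 0.20 (SE, adjusted p = 1.02e-07). Itga1 rose by 2.53 ± 0.20 and the basement membrane collagen gene Col4a1 by 2.11 ± 0.23, and Col18a1, detected on 0 control arrays, was at least 3.65-fold higher. All 4 stood wholly above control.

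The lists of energy metabolism changed no more often than all genes did, in either direction. Pfkfb3, which makes the activator of phosphofructokinase, had signals of 8.94, 9.59 and 9.78 after the full sequence, against 6.35, 6.74 and 8.51 in control, and rose by 2.52 ± 0.30 (SE, adjusted p = 1.68e-05). Eno2, an enolase, rose by 2.11 ± 0.30, and Pfkm, the muscle phosphofructokinase, fell by 1.39. Of 22 tested glycolysis genes 4 rose, 5 fell and the median was -0.05. Of 53 genes of oxidative phosphorylation, 9 rose, 4 fell and the median was 0.06, with Atp5f1d, an ATP synthase subunit, highest at 1.20 ± 0.09.

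Among housekeeping lists, those of the proteasome, translation, lysosome, unfolded protein response and heat shock were higher more often than the 26.7% of all genes. Solute carriers and G protein genes were so by less, and ribosomal, splicing and cytoskeletal lists were not. The 55 cytosolic ribosomal protein genes had a median of 0.07, with 10 higher and 0 lower at an adjusted p under 0.05 by limma, and the 55 mitochondrial ones a median of 0.08, with 9 higher and 7 lower. Proteasome genes were higher in 18 of 38 cases and lower in 2, with a median of 0.24. The interferon-inducible subunit Psmb9 was among the falls, at -0.90 ± 0.16, while Psmd12 rose by 0.88 ± 0.12. Translation factors and tRNA synthetases rose in 18 of 44 cases and fell in 4, with a median of 0.26. Yars1 and Aars1, which charge tyrosine and alanine, rose by 1.54 ± 0.17 and 1.01 ± 0.10. Lysosomal genes rose in 12 of 23 cases with 0 falls and a median of 0.32, led by the cathepsin genes Ctsd and Ctsb, at 1.31 and 1.28. In the unfolded protein response, 9 of 23 rose and 1 fell, with a median of 0.23. Atf4, the regulator of amino acid stress, rose by 1.49 ± 0.15 (SE, adjusted p = 2.61e-06), its target Asns was at least 3.13-fold higher, and the chaperone gene Hspa5 was not called (0.00). Of 36 heat shock genes 14 rose and 3 fell, and of 41 splicing genes 8 rose and 9 fell, with medians of 0.20 and -0.02. Cytoskeletal genes gave 7 rises and 4 falls among 27, solute carriers 24 and 20 among 77, and G protein genes 7 and 4 among 21, with medians of 0.12, -0.06 and -0.04.

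**Figure D5:**
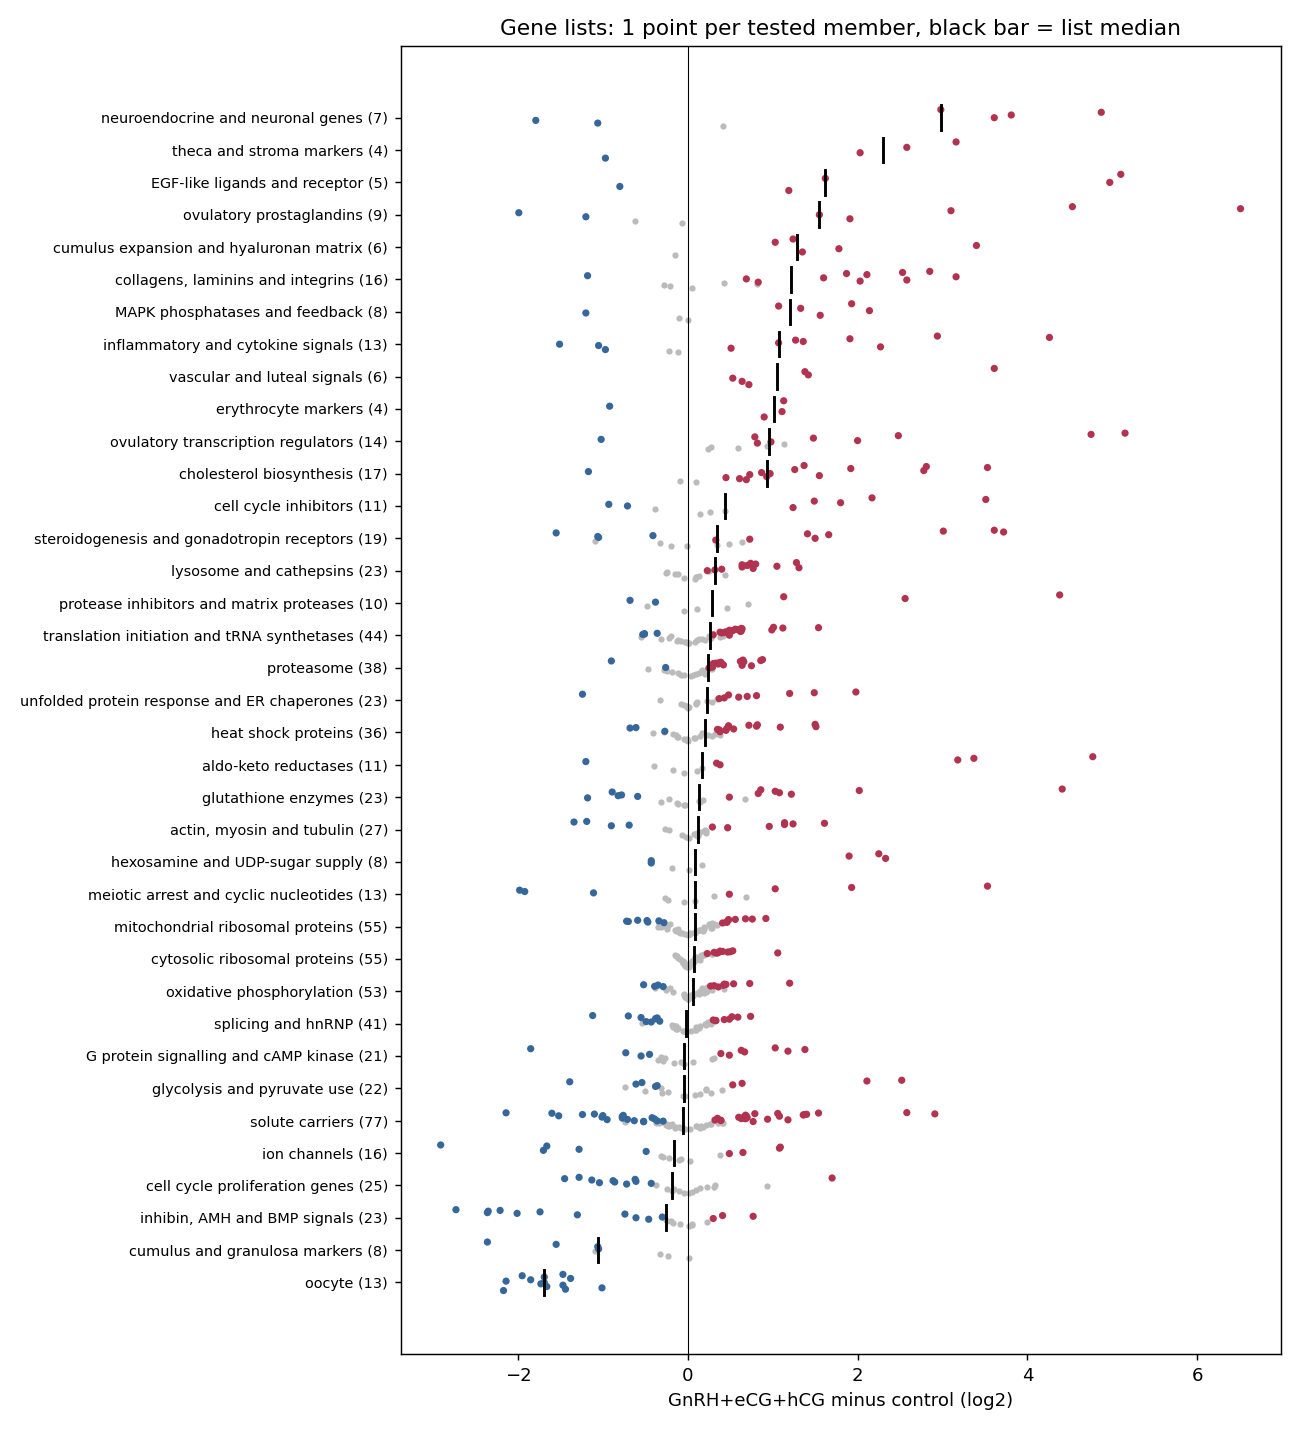
Each point is 1 tested member of a gene list, placed by its log2 difference of GnRH+eCG+hCG minus control; red points were called higher, blue lower, grey were not called, black bars are list medians, and the number tested follows each name. Lists with at least 4 tested members are shown, and the medians run between 2.98 for neuroendocrine genes and -1.69 for oocyte genes. Of the 7 neuroendocrine genes, 3 were detected on 0 control arrays and passed the filter only through the full-sequence group.

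Markers of other cells were measured beside these groups. For red cells, 4 of 7 markers could be tested, all hemoglobin chains of near-identical copies: 3 rose by 0.90 to 1.13 and Hba-a3 fell by 0.92. Their summed signal was 8870 to 12108 per full-sequence array and 3851 to 10022 per control array, and Alas2 and Slc4a1 were detected on 0 of 12. For leukocytes, 3 of 10 could be tested and all rose: Fcer1g by 1.07 ± 0.17, Cd74 by 1.23 ± 0.32, and Cd14, detected on 0 control arrays, by at least 1.97-fold. Their summed signal was 656 to 1364 per full-sequence array and 380 to 499 per control array, while Ptprc, the pan-leukocyte antigen, and Cd3e, Itgam, Laptm5 and Tyrobp were detected on 0 of 12. S100a8, a neutrophil protein that missed the filter, was detected on 5 full-sequence arrays and 0 control arrays.

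Of endothelial markers, 2 of 8 could be tested and both rose, Tek by 0.59 ± 0.20 and Esam by 0.80 ± 0.28, each losing the call without single arrays (full-sequence rat 10 or 12 or control rat 2 for Tek, adjusted p = 0.0506 to 0.0538; full-sequence rat 24 or control rat 1, 3, 13 or 14 for Esam, adjusted p = 0.0509 to 0.0614). The summed signal was 295 to 755 per full-sequence array and 205 to 285 per control array, and Cdh5, Flt1 and Tie1 were detected on 0 of 12, while Emcn was detected on 4 full-sequence arrays and 0 control arrays. For theca and stroma, 4 of 10 could be tested. The fibrillar collagen genes Col1a1, Col1a2 and Col3a1 rose by 3.16 ± 0.42, 2.58 ± 0.37 and 2.03 ± 0.31, and Ogn fell by 0.97. Summed signal was 3320 to 6126 per full-sequence array and 2347 to 3064 per control array. Insl3, Pdgfra and Tagln were detected on 0 of 12 arrays, Cyp17a1, the theca enzyme, on 3 full-sequence and 2 control arrays, and the stromal proteoglycan genes Lum and Dcn on 4 and 2 full-sequence arrays and on 0 control arrays. For oviduct epithelium, 1 of 7 could be tested, Krt8, which was not called (0.53 ± 0.45), with 134 to 262 per full-sequence array and 75 to 719 per control array. Epcam was detected on 1 full-sequence and 4 control arrays, Cdh1 on 0 full-sequence and 3 control arrays, and Cldn3 and Pax8 on 0 of 12. The part of these cells in the inflammatory, vascular and collagen rises was not tested.

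The same probes were also measured in the 2 groups that received no hCG, which are other rats, and all 3 comparisons share the 6 control rats. In a fit of all 24 arrays, GnRH+eCG differed from control at 30 of the 7119 probes (0.421%), and GnRH alone at 0 (0.0%) by limma (865 at an unadjusted p under 0.05). Pla2g4a was among the 30, with a log2 difference of 4.53 in the full sequence and of 1.48 ± 0.18 in GnRH+eCG (adjusted p = 0.000254). In the same order Bche had -2.63 and -1.80 ± 0.34 (adjusted p = 0.0145), Pde10a 3.53 and 0.99 ± 0.21 (adjusted p = 0.0384), and Vcan 1.03 and 0.50 ± 0.11 (adjusted p = 0.0449). For Ptgs2 the GnRH+eCG arrays held 6.59, 7.54 and 9.12 as lowest, median and highest signal, with detection on 4 of 6, and the difference from control was 1.35 ± 0.33 (adjusted p = 0.0616). Adcyap1 had -0.23 ± 0.29 there, Areg 0.43 ± 0.37 and Inhbb 0.26 ± 0.33, none of them called. Runx1 was uneven after GnRH alone, with 10.82 and 10.80 in rats 5 and 16 and 6.20 to 8.43 in the other 10 rats of the GnRH and GnRH+eCG groups. These 2 GnRH rats stood apart from their group in many of the named genes. Of the 132 named genes called higher after the full sequence, GnRH rats 5 and 16 lay above all 6 control rats in 103 and 89, whereas GnRH rats 4, 6, 17 and 18 did so in 23, 28, 12 and 34. High counts were not limited to those 2 rats: GnRH+eCG rats 7, 8, 9, 19, 20 and 21 had 46, 34, 65, 49, 67 and 93. A2m, for example, had 11.85 and 11.95 in GnRH rats 5 and 16 and 6.25 to 9.03 in the other 4 GnRH rats. Ptgs2 did not share this, with 6.55 and 6.51 in rats 5 and 16. The 132 genes were called higher against these same 6 control rats, and the same count was not made over all probes. The counts therefore only set the rats without hCG against each other, and do not measure how far any of them lay from control. No GnRH or GnRH+eCG array enters the fit of the full sequence against control. Differences between the full sequence and GnRH or GnRH+eCG were not tested here. The oocyte list had medians of -0.55 after GnRH, -0.38 after GnRH+eCG and -1.69 after the full sequence. Hemoglobin chains had medians of 1.16, 1.16 and 1.01 in that order, and leukocyte markers 0.79, 1.30 and 1.07, while for EGF-like genes they were 0.26, 0.32 and 1.62.

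Within rats 1 to 12 and rats 13 to 24 taken alone, the log2 difference of Ptgs2 was 6.29 and 6.73, that of Pla2g4a 4.68 and 4.38, that of Areg 4.51 and 5.43, that of Star 3.39 and 4.06, that of Sostdc1 -2.57 and -2.88, and that of Bmp15 -1.56 and -1.82. Amh had -1.65 and -3.06. The groups stood wholly apart over all 12 rats in each of these genes, so the direction had to be the same in both sets. Only the sizes carry information here.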

How the data were processed

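RNA of cumulus-oocyte complexes was isolated with a column kit for small samples, amplified and biotin labelled, and hybridised to 1-colour bead arrays, 1 per rat, per the labels' protocols. The deposited signals are not background corrected and hold 1 intensity per probe and array, and the deposited detection score is a fraction between 0 and 1, read here as 1 minus the detection p, since it rose with signal (lowest rank correlation 0.991). BeadStudio is named per the submitters' processing notes, with no version in the sources used here. Signals of all 24 arrays were normalized with neqc in limma (offset of 16), which corrects background with detection p, quantile normalizes and takes log2. Probes with a score above 0.99 on at least 6 of the 12 arrays were fitted with lmFit and eBayes (limma 3.58.1, R 4.3.3, 10 residual degrees of freedom). Every adjusted p is from limma with Benjamini-Hochberg adjustment over all 7119 probes, with a threshold of 0.05. Python 3.11.15, pandas 2.3.3 and matplotlib 3.10.9 made the summaries and plots. Depth has no equivalent here, and the number of arrays limits the precision.

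Of 22226 probes, 21946 shared an identifier between the deposited tables, and 280 were joined on their signals (within 0.002, log2) and left unnamed. GEO's platform annotation gave 13599 probes 1 gene symbol and 8627 none. Gene identifiers of 13559 were found in RefSeq (GRCr8), and 0 symbols changed. A gene is given by its brightest probe on average. There were 0 sample columns left unused. The rats' numbers, 1 to 12 and 13 to 24, stand in for a possible batch, since no slide or scan was used.

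Named genes are the 12 largest rises and 12 largest falls detected in both groups with ranges wholly apart, up to 8 genes detected in 1 group only in each direction, the 4 members of each list with the smallest adjusted p (all members of lists of 12 or fewer) and all markers of other cells. The following were chosen after their values were seen: Bmp2, Bub1b, Cdk1, Cdk4, Ctsd, Cyp11a1, Egr1, Egr2, Fos, Gdf9, Gja4, Gstm1, Gstm2, Gstm5, Gstm7, Hspa5, Insig2, Irf1, Jun, Junb, Klf4, Lhcgr, Mcm6, Msmo1, Nppc, Npr2, Nrip1, Padi6, Pcna, Pparg, Smad1, Smad5, Socs2, Tgfbr1, Tgfbr3 and Zp3. The members and the gene lists were chosen with earlier results of these data known. In simulated data with the spread of these arrays and 200 of 7119 probes changed, 43.3% of 1.5-fold, 86.6% of 2-fold and 100% of 4-fold changes were recovered, and 10 of 163 calls were false. Far fewer probes changed there than the 49.2% called in the data, and noise was drawn independently for each probe. The rates hold for that setting and do not give the recovery or false calls of this comparison.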

Additional observations from a re-analysis of the deposited data

Results flagged for a closer look

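Over the 217 named genes, 434 groups of 6 rats were examined for a rat whose gap to its nearest neighbour was a large share of the group's range (Dixon's test). Such a rat was found in 49, where chance gives about 1 in 20. Values are log2 normalized signals.

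Full-sequence rat 11 was lowest of its group in 10 genes, with Tnfrsf12a 9.51 (others 10.89 to 11.47), Ptgs2 11.51 (others 12.88 to 13.25), Ereg 9.62 (others 11.54 to 12.12), Areg 8.67 (others 11.51 to 12.22) and Pgr 9.79 (others 11.16 to 11.79). The others of these genes were Spry2 9.74 (others 10.72 to 10.95), Pfkfb3 8.94 (others 9.54 to 9.78), Vegfa 8.80 (others 9.48 to 9.75), Tek 6.61 (others 7.43 to 7.82) and Tpm4 12.88 (others 13.21 to 13.36). Full-sequence rat 10 stood apart in 6 genes, with Vnn3 10.20 (others 10.81 to 11.14), Akr1c12 14.04 (others 14.62 to 14.81), Serpinh1 8.21 (others 7.80 to 7.93), Adcyap1r1 7.96 (others 6.58 to 7.07) and Snrpb2 9.75 (others 9.89 to 9.97). It also did so in Cacna2d1 8.10 (others 8.51 to 8.74). Full-sequence rat 23 did so in 4, with Dusp7 6.71 (others 7.35 to 7.50), Spry4 8.09 (others 7.36 to 7.51), Cd14 8.48 (others 7.33 to 7.75) and Rpl7 9.78 (others 10.21 to 10.37). Full-sequence rat 12 did so in 1, with Hbb-b1 10.83 (others 10.24 to 10.43).

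Control rat 2 stood apart in 20 genes and was the highest control in 19 of them, with Runx1 7.51 (others 6.31 to 6.43), A2m 9.47 (others 6.22 to 6.92), Osgin1 9.98 (others 6.23 to 6.55), G0s2 10.80 (others 6.45 to 7.37) and Tnfrsf12a 7.36 (others 6.25 to 6.56). Further values of control rat 2 were Pvr 7.69 (others 6.31 to 6.64), Scd 8.96 (others 6.25 to 6.48), Cebpb 7.23 (others 6.54 to 6.72), Adamts9 7.31 (others 6.26 to 6.47) and Sdc4 7.55 (others 6.41 to 6.67). Others were Pde4d 6.67 (others 6.24 to 6.34), Star 9.98 (others 6.61 to 7.67), Cyp51 9.33 (others 7.14 to 7.87), Idi1 11.09 (others 8.13 to 8.72) and Timp1 10.76 (others 8.32 to 9.16). The last were Btg3 7.11 (others 6.62 to 6.77), Pfkfb3 8.51 (others 6.35 to 7.15), Snap25 6.61 (others 6.01 to 6.20), Nr5a2 10.46 (others 10.74 to 10.89) and Col4a1 7.22 (others 6.47 to 6.73). In Nr5a2 it was the lowest. Control rat 1 stood apart in 4 genes, with Ptgr1 10.78 (others 8.73 to 9.46), Vegfc 8.62 (others 6.89 to 7.50), Ctnnb1 7.56 (others 7.11 to 7.23) and Krt8 9.49 (others 6.23 to 6.63). Control rat 3 did so in 3, with Sult1b1 6.36 (others 6.19 to 6.24), Ogt 9.73 (others 8.64 to 9.03) and Oga 10.09 (others 9.33 to 9.48). Control rat 15 did so in 1, with Hnrnph2 7.69 (others 8.07 to 8.27).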

How the results depend on the processing

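Leaving out 1 array at a time gave 3140 to 3601 called probes, 1610 to 1828 higher, 1530 to 1773 lower, and 357 to 403 called members of the gene lists. Median scaling without background correction called 1082 probes higher, with 41.9% of calls higher against 51.1%. Requiring detection on all 12 arrays, which tests fewer probes and drops those seen in 1 group only, called 2219 (1091 higher, 1128 lower) and 254 list members. It reversed the medians of prostaglandins (-0.62, 3 genes), EGF-like genes (-0.80, 1 gene), inflammatory genes (-0.97, 5 genes) and theca and stroma markers (-0.97, 1 gene). Rats 1 to 12 alone, with fewer arrays, gave 1064 calls (614 higher, 450 lower) and 152 list members. GnRH+eCG differed from control at 17 probes when those 12 arrays alone were fitted, against 30, and the cause was not tested. Of 189 called named genes, 52 lost the call within rats 1 to 12 and 13 within rats 13 to 24, and 8 lost it on leaving out some 1 array (Akr1c14, Cst3, Dusp1, Esam, Fzd1, Ogt, Tek and Vegfa). No paired analysis was possible because the groups share no rat numbers. Signal near background limits what could be tested: 12514 probes were detected on 0 of the 12 arrays.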
